A study of Mus musculus with 503 samples.

Results

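The cells described here are 118 single fibroblasts from the crushed mouse spinal cord, selected by their own RNA from 227 cells labelled 3 days after injury, in a series of 503 cells. A cell was a member if it had 20000 or more counts over gene rows, *Col1a1* at 200 CPM (counts scaled to a total of 1000000 per cell) or more and *Kcnj8* under 100 CPM. *Col1a1* encodes a chain of type I collagen, the main collagen of scar tissue, and *Kcnj8* encodes a potassium channel subunit that marks central nervous system pericytes. Of the members, 90 had been sorted as tdTomato+ and 28 as tdTomato-, and the comparison between these sorts is the subject of what follows. The levels of *Col1a1* and *Kcnj8* chose the cells and are given only as a description.

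All mice carried the alleles GLAST-CreERT2, R26R-tdTomato and Pdgfrb-eGFP, and the labels give them as female. The injured groups came from the crushed segment of the cord 3 days after a complete crush, and the uninjured groups from cord without a crush. Recombination was induced in adult mice with tamoxifen, which was cleared before injury. Within each condition the sort took all its cells as EGFP+ and split them by tdTomato, after the outer meningeal layers had been taken off, and each sorted cell became 1 Smart-seq3 library. The series text gives 5 days for the injured cells, and the labels of the cells, which give 3 days, were followed.

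The reporter alleles set what a sort can show. EGFP follows *Pdgfrb*, a platelet-derived growth factor receptor of pericytes, vascular smooth muscle cells and fibroblasts. tdTomato marks cells in which GLAST, the glutamate transporter encoded by *Slc1a3*, was active at the time of tamoxifen, and all their progeny. In the cord GLAST is active in a subset of pericytes as well as in fibroblasts, so a tdTomato+ fibroblast may descend from either, and the gate does not separate these origins. A tdTomato- fibroblast may come from a cell without GLAST or from a GLAST-expressing cell that escaped recombination. The study itself set such a group of non-recombined cells apart.

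Fibroblasts of the central nervous system lie in the meninges and along larger vessels, embedded in collagen-rich matrix. After a lesion they enter or expand in the damaged tissue, lay down collagens, fibronectin and other matrix proteins, and form a fibrotic scar with macrophages. Fibroblasts of the pia and of brain vessels, of the arachnoid barrier, of the dura and of the outer coat (adventitia) of arteries differ in the matrix proteins, transporters, complement proteins and signalling inhibitors that they make. The *Pi16*-expressing type is found in the adventitia and connective tissue of many organs.

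The gate kept 90 of the 100 tdTomato+ cells that had enough counts (90%, 95% exact binomial interval 82.4 to 95.1%) and 28 of 104 tdTomato- cells (26.9%, 18.7 to 36.5%). On plate 211 it kept 77 tdTomato+ and 14 tdTomato- cells, and on plate 215 it kept 13 and 14. A further 21 tdTomato+ cells of plate 215 were too shallow. The *Col1a1* threshold fell in a sparse range, and the *Kcnj8* threshold did not in the tdTomato+ sort. The lowest *Col1a1* level inside the gate was 374 CPM in the tdTomato+ sort and 486 CPM in the tdTomato- sort, and the highest among cells refused for it alone was 4.11 and 51.1 CPM. The highest *Kcnj8* level inside was 99.5 and 90.3 CPM. The lowest among cells refused for it alone, 5 tdTomato+ cells and 1 tdTomato- cell, was 115 and 3200 CPM. *Kcnj8* had no count in 61 of 90 tdTomato+ and 20 of 28 tdTomato- members. Of the tdTomato- cells left outside, 70 failed both thresholds. Before injury the same gate kept 21 of 145 tdTomato+ cells (14.5%) and 8 of 100 tdTomato- cells (8%).

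Median depth of the members was 335026 counts for tdTomato+ and 198032 counts for tdTomato- cells on plate 211, and 52479 and 238810 counts on plate 215. The tdTomato+ cells of plate 215 were thus the shallowest and their summed counts came to 1547196, against 26765041 on plate 211. No label names an animal, so each sort was 1 sample and no test was made across cells. Counts were summed over the members of a sort on a plate, and the values below are CPM of those sums for plates 211 and 215. A difference is on the log2(CPM + 1) scale, tdTomato+ minus tdTomato-, and is the mean of the 2 differences found within plates, which are given as its technical spread. A shift from fewer cells of a kind cannot be told apart from less RNA per cell in such sums.

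The other fibroblast markers were present in both sorts. *Dcn*, which encodes the collagen-binding proteoglycan decorin, had a count in every member, with levels in single cells from 136 to 48842 CPM (median 5478) in the tdTomato+ sort and from 424 to 33157 CPM (median 3074) in the tdTomato- sort. *Pdgfra*, the other platelet-derived growth factor receptor gene, had a count in 88 of 90 and 28 of 28 members, and its summed level was 352 and 400.1 CPM in tdTomato+ and 217 and 339.8 CPM in tdTomato- cells. Neither gene passed a log2 difference of 1 on both plates. *Lum*, encoding the related proteoglycan lumican, did: it stood at 2650.4 and 2119 CPM against 679 and 646 CPM, a difference of 1.84 (1.96 on plate 211 and 1.71 on plate 215). It had a count in 89 of 90 tdTomato+ but 21 of 28 tdTomato- members, and the single cells of the sorts overlapped.

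Markers of other cell types were low in the sums of both sorts, while single cells reached higher. Summed over its list, each value being the range over both plates, the 9 pericyte markers other than *Kcnj8* reached 218 to 227 CPM in tdTomato+ and 177 to 377 CPM in tdTomato- cells, the 7 smooth muscle markers 136 to 383 and 111 to 212 CPM, and the 8 endothelial markers 237 to 262 and 234 to 431 CPM. The 9 immune markers summed to at most 68.1 CPM, the 6 astrocyte markers to at most 40.4 CPM, the 6 Schwann cell markers to at most 23.3 CPM and the 6 oligodendrocyte lineage markers to at most 5.11 CPM. The oligodendrocyte lineage markers *Olig1* and *Olig2* were at 0 in both sorts, and *Higd1b*, *Lmod1*, *Aif1*, *Aqp4*, *Sox10*, *Ngfr* and *Foxd3* in the tdTomato- sort. The pericyte marker *Cspg4* (NG2) was called higher in tdTomato- cells, at 29.8 and 19.4 CPM against 63.1 and 53.5 CPM. Of the endothelial list, *Emcn* was called higher in the tdTomato+ sort and *Ly6c1*, which adventitial fibroblasts also express, in the tdTomato- sort. The highest single cell of each sort (tdTomato+ and tdTomato-) reached 1764 and 1235 CPM of the pericyte list and 1728 and 1683 CPM of the smooth muscle list. For the endothelial list it reached 1022 and 1078 CPM, for the immune list 142 and 468 CPM, and for the astrocyte list 559 and 172 CPM. *Acta2* and *Tagln*, also used by the study to class smooth muscle cells, were not in that list and are read below. The part of these markers in the differences below was not tested.

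*Slc1a3*, the gene behind the sort, stood apart as the labels imply. Its summed level was 207 and 306 CPM in tdTomato+ and 33.3 and 13.9 CPM in tdTomato- fibroblasts, a difference of 3.48 (2.60 and 4.36). The 95% exact Poisson intervals of the tdTomato- sums, which cover counting error only, ran from 27.2 to 40.4 and from 10.6 to 17.9 CPM. *Slc1a3* RNA was found in 82 of 90 tdTomato+ members, with a median of 69.6 and a highest value of 3246 CPM, and in 13 of 28 tdTomato- members, where 1 cell at 521 CPM held 57.1% of the counts. So 13 sorted tdTomato- fibroblasts carried some RNA of the gene that drives the Cre, from 2.38 CPM upwards. After each cell was thinned to 20000 counts, the share with an *Slc1a3* count was 65.6% (54.8 to 75.3%) of tdTomato+ and 21.4% (8.3 to 41%) of tdTomato- members.

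*Pdgfrb*, which drives EGFP in both sorts, had a count in all 118 members. Its level was 1152 and 1145 CPM in tdTomato+ and 355 and 673 CPM in tdTomato- fibroblasts. The difference was 1.70 on plate 211 and 0.77 on plate 215, so it did not pass 1 on both. The platelet-derived growth factor ligand genes *Pdgfa*, *Pdgfb*, *Pdgfc* and *Pdgfd* were too low to compare in either sort.

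*Slc1a3* is the gene behind the sort, and below *Spp1* was called higher in tdTomato+ and *Pi16* in tdTomato- cells. The promoters of these genes are printed. They are taken from RefSeq (build GRCm38.p6) as 250 bases before to 50 after the gene's start and are written 5′ to 3′ on the gene's strand. Capitals mark the letters of promoter boxes on either strand. The TATA box was searched as TATAAA. The box named for its letters was searched as CCAAT. The GC box, the usual target of Sp family factors, was searched as GGGCGG.
*Slc1a3*, chr15:8710758-8711057, minus strand: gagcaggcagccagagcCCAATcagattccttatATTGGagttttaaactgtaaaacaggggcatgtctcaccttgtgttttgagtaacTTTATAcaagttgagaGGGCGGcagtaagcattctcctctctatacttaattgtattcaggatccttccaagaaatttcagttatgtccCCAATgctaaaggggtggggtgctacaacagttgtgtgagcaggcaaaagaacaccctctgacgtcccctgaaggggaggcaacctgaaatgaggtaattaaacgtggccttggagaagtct
*Spp1*, chr5:104434861-104435160, plus strand, first of its listed starts: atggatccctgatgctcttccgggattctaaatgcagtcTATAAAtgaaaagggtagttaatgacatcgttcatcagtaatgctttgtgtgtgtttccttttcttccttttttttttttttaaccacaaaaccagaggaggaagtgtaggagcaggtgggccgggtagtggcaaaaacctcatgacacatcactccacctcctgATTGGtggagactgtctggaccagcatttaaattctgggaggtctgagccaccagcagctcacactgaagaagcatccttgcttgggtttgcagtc
*Pi16*, chr17:29318632-29318931, plus strand: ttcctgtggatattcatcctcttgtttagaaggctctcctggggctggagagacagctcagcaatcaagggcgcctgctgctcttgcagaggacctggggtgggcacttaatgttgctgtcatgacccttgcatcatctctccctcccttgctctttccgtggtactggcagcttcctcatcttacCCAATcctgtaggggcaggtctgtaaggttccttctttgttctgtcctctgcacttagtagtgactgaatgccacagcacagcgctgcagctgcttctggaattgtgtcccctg
The TATA letters were found in the windows of *Slc1a3* (from base 90, other strand) and *Spp1* (from base 40), and a CCAAT box in all 3 printed windows. The window of the second listed *Spp1* start, not printed, held none of the boxes. TGANTCA, the letters bound by AP-1, which neither strand of these windows holds, was searched as well. Among 4736 windows of genes tested here, 7.52% held a TATA box, 37.8% a CCAAT box, 64.6% a GC box and 5.41% the AP-1 letters. Among 202 windows of genes called higher in tdTomato+ cells the shares were 12.9%, 38.6%, 57.9% and 8.91%, and among 441 windows of genes called higher in tdTomato- cells 9.3%, 32.4%, 56.9% and 9.52%. Over all 32851 RefSeq windows they were 13.6%, 37.4%, 35.7% and 7.81%. A match is a run of letters and not a site shown to be bound.

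To ask how far tdTomato+ and tdTomato- fibroblasts of the same lesion differ, 4634 genes were compared that had 50 CPM or more, as the mean of the plates, in at least 1 sort and a count on both plates. A gene was called where its difference was 1 or more in the same direction on each plate. By this rule 196 genes (4.23% of those compared) were higher in tdTomato+ and 432 (9.32%) were higher in tdTomato- fibroblasts. The median difference over all genes other than *Col1a1* was 0.03, so the sums were centred. Of 412 genes past 1 towards tdTomato+ on plate 211, 91.3% had the same direction on plate 215, and of 544 past 1 towards tdTomato-, 96.3% did. Across genes, which are not independent replicates, the differences of both plates had a Pearson correlation of 0.807, and their median SD was 0.275. A further 75 genes were high enough but had no count on 1 plate and were not compared, 42 for lack of counts in any cell of plate 211 and 33 in any of plate 215. Over the table, 198 symbols had 500 or more counts on plate 211 and none on the other 3 plates, and 445 the reverse.

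**Figure D1:**
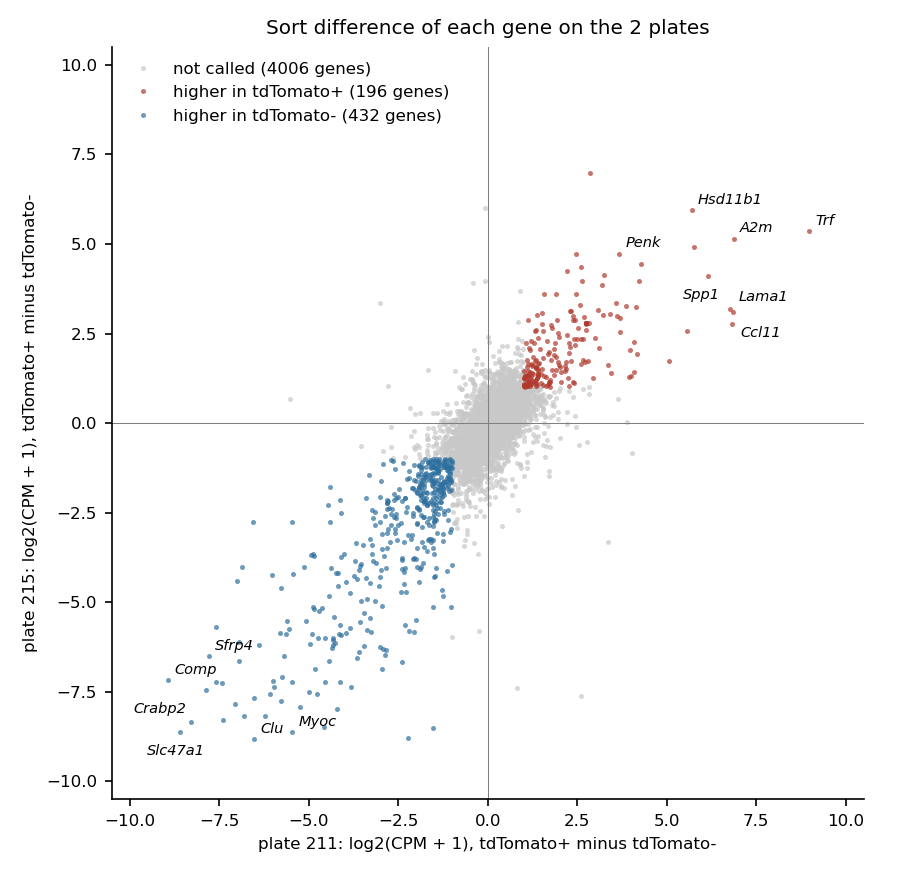
Each point is 1 of 4634 genes, placed by its log2(CPM + 1) difference, tdTomato+ minus tdTomato- fibroblasts, on plate 211 (horizontal axis) and on plate 215 (vertical axis). Red points are the 196 genes called higher in tdTomato+ cells and blue points the 432 called higher in tdTomato- cells, and the points run along the rising diagonal, with *Trf* at one end and *Slc47a1* at the other.

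The 15 genes with the largest differences towards tdTomato+ fibroblasts include a laminin gene and genes of secreted protease inhibitors and immune signals. They are *Trf* (7.17), *A2m* (6.01), *Hsd11b1* (5.82), *St8sia1* (5.34), *Ms4a4d* (5.13), *Lama1* (4.98), *Spp1* (4.98), *Ccl11* (4.80), *Frzb* (4.35), *Penk* (4.20), *Kcne4* (4.10), *Ccl7* (4.07), *Tfpi2* (3.69), *Il11* (3.69) and *Tbx3* (3.56). *Spp1* encodes osteopontin, a secreted phosphoprotein of wounds and mineralised matrix. It reached 26157 and 6022 CPM in the tdTomato+ sums and 226 and 696 CPM in the tdTomato- sums. Every tdTomato+ member had *Spp1* counts, from 39.9 to 175878 CPM with a median of 8769, whereas tdTomato- members ran from 0 to 8941 CPM with a median of 51.2, and 1 of those 28 cells exceeded the tdTomato+ median.

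*Trf* encodes transferrin, the iron carrier of plasma. Its level was 502 and 442 CPM in tdTomato+ cells, 0 in the tdTomato- cells of plate 211 and 9.76 CPM in those of plate 215. Against a floor of 3 counts in the plate 211 sum, *Trf* was at least 518-fold higher there. It was found in 86 of 90 and 6 of 28 members. *Lama1*, which encodes the laminin chain of the pial basement membrane, had 179.9 and 253 CPM against 0.647 and 27 CPM and was found in 78 of 90 and 5 of 28 members.

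Further genes of this group were present in only some tdTomato+ cells. *Hsd11b1*, whose enzyme regenerates active glucocorticoid inside cells, had a count in 57 of 90 members, with a median of 17.3 and a highest value of 2064 CPM. *Penk*, the precursor of the enkephalin opioid peptides, had a count in 44 of 90, and *A2m*, the broad protease inhibitor alpha-2-macroglobulin, in 60 of 90. *Ccl11*, an eosinophil-attracting chemokine, had a count in 61 of 90 and a highest value of 9623 CPM. In the tdTomato- sort these genes came from few cells: 1 cell held 95.7% of the *A2m* counts, 89.5% of those of *Ccl11* and 64.3% of those of *Hsd11b1*.

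Towards tdTomato- fibroblasts the differences were larger, and transporter, matrix and Wnt regulator genes were among them. The 15 genes at this end are *Slc47a1* (-8.61), *Crabp2* (-8.30), *Comp* (-8.05), *Tmeff2* (-7.84), *Clu* (-7.67), *Ccn5* (-7.66), *Wnt9a* (-7.48), *Aspn* (-7.44), *Slc4a10* (-7.41), *Fmo2* (-7.33), *Mgll* (-7.21), *Sfrp4* (-7.15), *Emb* (-7.10), *Myoc* (-7.04) and *Shisa3* (-6.77). Their tdTomato+ sums were low beside their tdTomato- sums, and 10 of the 15 had no count in the tdTomato+ cells of plate 215. The exact size of those 10 differences thus depends on the added 1 CPM.

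*Slc47a1*, which encodes an exporter of organic cations, stood at 1.31 and 1.29 CPM in tdTomato+ and 891 and 898 CPM in tdTomato- fibroblasts. *Crabp2*, which carries retinoic acid inside cells and is prominent in the arachnoid and dura, stood at 1.31 and 0 CPM against 711 and 322 CPM. On plate 215, against a floor of 3 counts, it was at least 166-fold higher in tdTomato- cells. Both genes were rare in the tdTomato+ sort, with a count in 6 and 4 of 90 cells, and were found in 16 and 20 of 28 tdTomato- cells.

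*Sfrp4*, encoding a secreted Wnt antagonist, was found in 78.6% of thinned tdTomato- cells, the highest share of the 15, with an unthinned count in 26 of 28 and single cell levels from 0 to 58738 CPM (median 1016). Its sums were 8337 and 2261 CPM there and 36.8 and 23.9 CPM in tdTomato+ cells, of which 19 of 90 had a count. *Comp*, a cartilage and tendon matrix protein, was instead found in 13 of 28 tdTomato- cells, with a median of 0 and a highest value of 4559 CPM. *Myoc*, encoding the secreted protein myocilin, was found in 9 of 28.

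**Figure D2:**
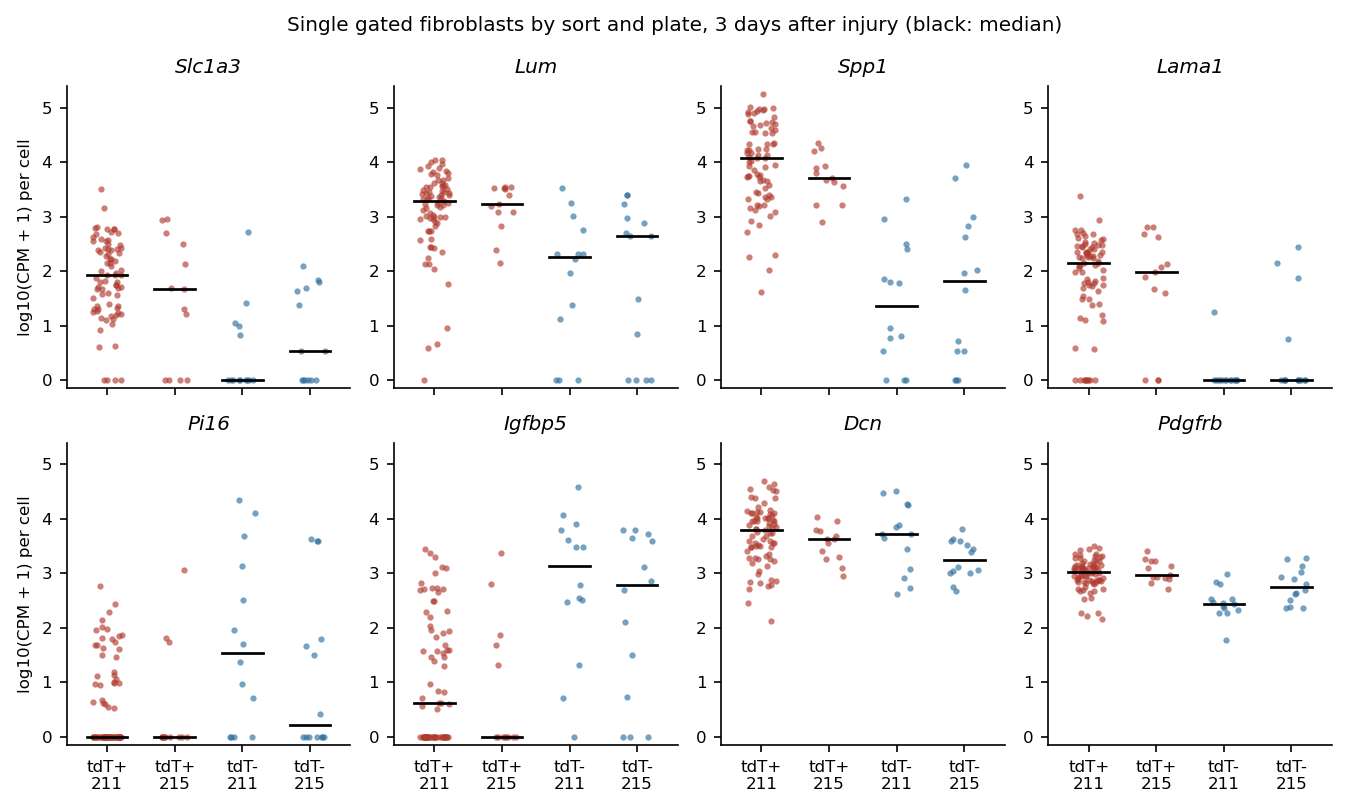
Each point is 1 gated cell 3 days after injury, with its log10(CPM + 1) on the vertical axis, for 8 genes in 4 groups: tdTomato+ (red) and tdTomato- (blue) cells of plates 211 and 215 (77, 13, 14 and 14 cells), spread sideways at random within a group, with a black line at the median. *Spp1* and *Lama1* are high in the red groups, *Pi16* and *Igfbp5* reach higher in the blue groups, and *Dcn* overlaps throughout.

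The tdTomato- fibroblasts differed widely among themselves. *Pi16*, encoding a secreted peptidase inhibitor of adventitial fibroblasts, ran from 0 to 22611 CPM with a median of 15.4 CPM, and was without a count in 11 of 28 cells. *Igfbp5*, an insulin-like growth factor binding protein, ran from 0 to 38533 CPM with a median of 672 CPM and had a count in 24 of 28. Of the 28 cells, 7 had counts of both *Slc1a3* and *Pi16*, 6 of *Slc1a3* alone, 10 of *Pi16* alone and 5 of neither. In each of those 7 cells the lower of both genes stood at only 1.66 to 31.2 CPM, which is a few counts per cell. The 7 cells are thus not shown to express both genes strongly. Among 90 tdTomato+ cells the numbers were 36, 46, 0 and 8. So *Pi16* without *Slc1a3* was seen in tdTomato- cells alone at these depths.

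*Pi16* counts in tdTomato+ cells were common but low. They were found in 36 of 90, up to 1169 CPM, and the sums were 27.9 and 184 CPM against 2735 and 1244 CPM in tdTomato- cells, a difference of -4.66 (-6.57 and -2.75). The highest tdTomato- cell held 34.2% of that sort's *Pi16* counts. After thinning, the share with a *Pi16* count was 18.9% (11.4 to 28.5%) of tdTomato+ and 50% (30.6 to 69.4%) of tdTomato- members.

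Lists of genes known from fibroblasts of different sites were read next. Each is described by the number of its members called and in many cases by its median, beside 0.03 and the 4.23% and 9.32% called over all genes. A gene could pass the 50 CPM filter through the sort where it was high. Counts and medians thus do not speak for members below the filter. Of 20 brain and pial fibroblast genes, 12 were high enough to compare. Of these, 6 were higher in tdTomato+ cells: *Slc1a3*, the laminin genes *Lama1* and *Lama2*, the gap junction gene *Gja1*, the apolipoprotein gene *Apod* and *Penk*. A further 3 were higher in tdTomato- cells, namely *Slc47a1*, the transcription factor gene *Bnc2* and the prostaglandin D synthase gene *Ptgds*. The median was 1.58 (1.50 and 1.40). *Slc1a3* belongs to this list and to the sort, so it is not independent of it. *Ptgds* rested on single cells, of which 1 held 81.3% of the tdTomato- counts.

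*Gja1*, which encodes connexin 43, was found in every member of both sorts. It stood at 601 and 1024 CPM in tdTomato+ and 272 and 323 CPM in tdTomato- cells. *Apod* stood at 8260.2 and 1736 CPM against 248 and 526 CPM, but its tdTomato+ cells ran from 0 to 140029 CPM with a median of 116 CPM, so that the sum followed a few cells, of which the highest held 20.9%.

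Of 15 *Pi16*-type adventitial genes, 13 were compared, 10 were called higher in tdTomato- cells and 0 higher in tdTomato+ cells, with a median of -4.20 (-3.84 and -4.34). Besides *Pi16* they were *Dpp4*, *Cd34*, *Cd55*, *Sema3c*, *Ly6a*, *Mfap5*, *Col14a1*, *Clec3b* and *Ly6c1*. *Cd34*, a sialomucin of progenitors, endothelium and adventitial fibroblasts, stood at 44.7 and 27.1 CPM in tdTomato+ and 444 and 626 CPM in tdTomato- cells. *Mfap5*, a microfibril component, stood at 176 and 195 CPM against 1423 and 821 CPM. *Mfap5* was found in 72 of 90 and 25 of 28 cells, so the sorts differed in its level more than in its presence. Of 12 arachnoid and dural genes 7 were compared and 3 were higher in tdTomato- cells (*Crabp2*, *Mgp* and *Fxyd5*), with a median of -0.79.

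The 2 lists could also be read cell by cell. After thinning to 20000 counts a tdTomato+ cell had a count for a median of 6 pial genes (range 1 to 11 of 20) and a tdTomato- cell for 5 (1 to 11). For the *Pi16*-type genes the medians were 4 (1 to 8 of 15) and 7 (3 to 14). The sorts thus overlapped fully in the number of pial genes, and the highest numbers of *Pi16*-type genes, from 9 to 14, were reached by tdTomato- cells.

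**Figure D3:**
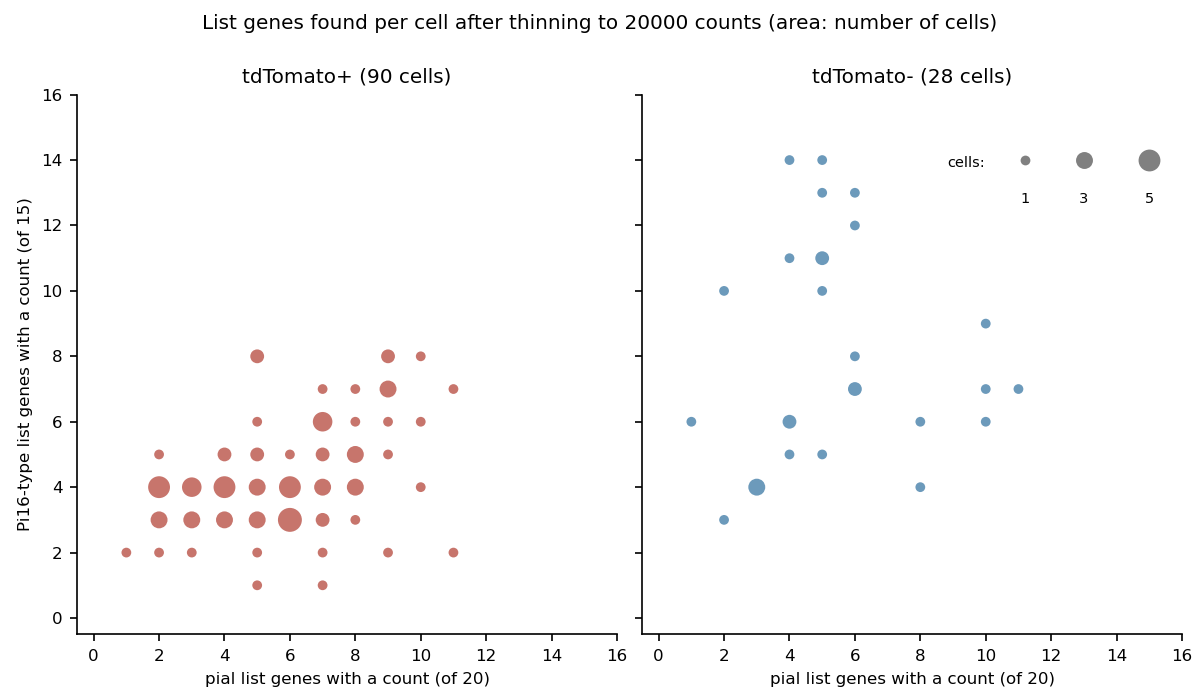
Cells of each sort are placed by how many of 20 brain and pial list genes (horizontal axis) and how many of 15 *Pi16*-type list genes (vertical axis) had a count after thinning to 20000 counts, with the circle area proportional to the number of cells. The 90 tdTomato+ cells (left) stay at 8 *Pi16*-type genes or fewer, whereas the 28 tdTomato- cells (right) extend to 14.

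The matrix genes split by kind and not all in one direction. The fibrillar and type VI collagens, which form the load-bearing and the pericellular networks, were mostly not called. Of 9 compared, *Col6a1* and *Col6a2* were higher in tdTomato- cells, with a list median of -0.73 (-1.25 on plate 211 and -0.23 on plate 215). *Col3a1* stood at 4960.0 and 4747 CPM in tdTomato+ and 14191 and 5213 CPM in tdTomato- cells and was not called, since plate 215 showed a difference of -0.14. *Col6a1* stood at 426 and 531 CPM against 1350.1 and 1155 CPM.

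Some basement membrane genes were called higher in tdTomato+ fibroblasts. They were the type IV collagen genes *Col4a5* (1.94) and *Col4a6* (3.30), the endostatin-bearing *Col18a1* (2.22), and the laminin genes *Lama1*, *Lama2* (1.76) and *Lamb1* (2.50). *Lamb1* stood at 271 and 425 CPM in tdTomato+ and 41.7 and 83.4 CPM in tdTomato- cells. *Lamb2*, another laminin beta chain gene, went the other way, at 108 and 159 CPM against 390.4 and 531 CPM. Over the lists, 3 of 10 laminin and basement membrane genes were higher in tdTomato+ and 1 in tdTomato- cells, and of 11 non-fibrillar collagens 3 were higher in each sort. The collagens higher in tdTomato- cells were *Col8a2* (-4.37), *Col12a1* (-1.94) and *Col14a1* (-4.78).

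Hyaluronan genes, which make, bind and organise that glycosaminoglycan, were called in 1 direction. Of 9 compared, 3 were higher in tdTomato+ and 0 in tdTomato- cells, with a median of 1.06 (0.90 and 1.43). The synthase gene *Has2* stood at 99.2 and 82.7 CPM in tdTomato+ and 14.6 and 9.76 CPM in tdTomato- cells. *Tnfaip6*, whose product links hyaluronan to inter-alpha-inhibitor heavy chains, had a difference of 2.49 and *Itih5*, one such heavy chain gene, of 1.74. The synthase gene *Has1* (-0.43) and the hyaluronan receptor gene *Cd44* (1.06) were not called.

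The small leucine-rich proteoglycans, which bind and space collagen fibrils, and the elastic fibre genes had more calls towards tdTomato- fibroblasts, and *Lum* was called the other way. Of 7 proteoglycans 4 were called towards tdTomato- cells: *Ogn* (-5.15), *Aspn* (-7.44), *Prelp* (-2.49) and *Ecm2* (-2.94). The list median was -2.49 (-1.51 and -3.48). *Eln*, the elastin gene, stood at 7.51 and 3.23 CPM in tdTomato+ and 1641 and 218 CPM in tdTomato- cells, and 1 cell held 36.5% of the latter. With it *Mfap4*, *Mfap5*, *Ltbp3* and *Ltbp4* made 5 of 10 elastic fibre genes, with a median of -0.83.

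Among 26 matricellular and adhesive glycoproteins, 3 were higher in tdTomato+ cells (*Spp1*, *Tnc* and *Tgfbi*) and 8 in tdTomato- cells. *Tnc*, encoding tenascin-C of developing and wounded tissue, stood at 998 and 1599.7 CPM in tdTomato+ and 114 and 373 CPM in tdTomato- cells. It had a count in 84 of 90 and 15 of 28 cells. *Smoc2*, a calcium-binding matrix protein of basement membranes, stood at 152 and 32.3 CPM against 2986 and 1435 CPM. The others towards tdTomato- cells were *Tnxb*, *Thbs3*, *Ccn5*, *Fbln5*, *Comp*, *Smoc1* and *Mgp*. Enzymes that process and crosslink collagen were not called, with none of 14 called and a median of -0.05. Of 16 proteases and their inhibitors, *Mmp11* (2.71) was higher in tdTomato+ cells and *Timp2*, *Adamts1*, *Adamts5* and *Ctsk* in tdTomato- cells.

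Genes of the complement list were called towards tdTomato- fibroblasts in 9 of 10 cases, with a median of -3.46 (-2.73 and -3.97). They included the classical pathway protease genes *C1ra* and *C1s1*, the inhibitor genes *Serping1* and *Cd55*, and the alternative pathway genes *C3* and *Cfb*. The count and median also hold C1q/TNF-related genes, which are not complement components: *C1qtnf1* and *C1qtnf7*, both called, and *C1qtnf6* (-0.90), not called. *Serping1*, the C1 inhibitor gene, stood at 503 and 376 CPM in tdTomato+ and 1916 and 1298 CPM in tdTomato- cells, and its single cell medians were 71.1 and 878 CPM. *C3*, the central complement protein gene, was found in 6 of 28 tdTomato- and 8 of 90 tdTomato+ cells and reached 1384 and 19.2 CPM. The class I histocompatibility genes *H2-K1* (-1.88) and *H2-D1* (-2.01) stood higher in tdTomato- cells too, as the only 2 of 16 interferon response genes called in that direction, and *Usp18* was called in the other.

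Chemokine and cytokine genes were called in both directions. Of 15 compared, 5 were higher in tdTomato+ cells and 3 in tdTomato- cells, with a median of 0.48 (0.35 and 0.87). *Ccl2*, the main monocyte-attracting chemokine gene, stood at 935 and 1480.1 CPM in tdTomato+ and 86.7 and 177 CPM in tdTomato- cells, and it was found in 83 of 90 and 13 of 28. Its neighbour in the same chemokine cluster, *Ccl7*, stood at 974 and 897 CPM against 19.4 and 151 CPM. The alarmin gene *Il33* stood at 1676 and 2134 CPM against 769 and 288 CPM. *Il11*, a cytokine gene linked to fibrosis, was higher in tdTomato+ cells (3.69) while its receptor gene *Il11ra1* was higher in tdTomato- cells (-1.71). *Cxcl16* and the chemokine scavenger gene *Ackr3* were also higher in tdTomato- cells.

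**Figure D4:**
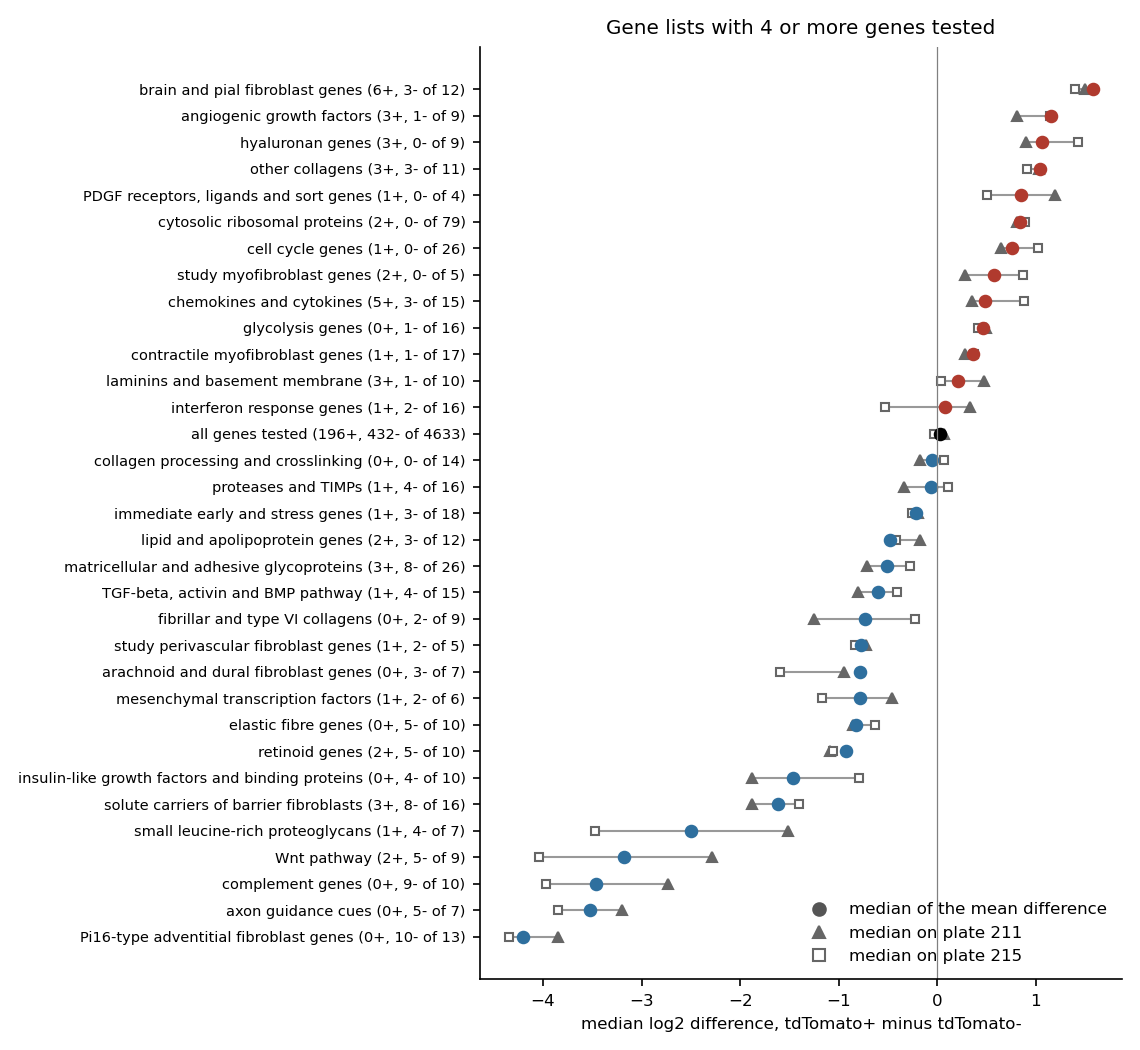
For each gene list with 4 or more genes compared, the coloured circle is the median log2 difference, tdTomato+ minus tdTomato- fibroblasts, the triangle and the square are the medians on plates 211 and 215, and the brackets give the genes called higher in each sort and the number compared. The *Pi16*-type list is lowest at -4.20, the brain and pial list highest at 1.58, and all genes (black) lie at 0.03.

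Wnt ligands and inhibitors divided between the sorts. Of 9 compared, *Wnt5a* (1.23) and the antagonist gene *Frzb* were higher in tdTomato+ cells, and *Wnt2* (-3.50), *Wnt9a*, *Sfrp4*, *Dkk3* (-3.18) and the agonist gene *Rspo2* (-6.79) in tdTomato- cells. *Frzb* stood at 156 and 303 CPM in tdTomato+ and 7.12 and 13 CPM in tdTomato- cells. *Frzb* and *Sfrp4*, 2 secreted antagonists of the same family, thus lay at opposite ends of the comparison.

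Some insulin-like growth factor genes were called higher in tdTomato- fibroblasts. Of 10 compared, *Igf1*, *Igfbp4*, *Igfbp5* and *Igfbp6* were called, with a list median of -1.46 (-1.88 and -0.79). *Igfbp5* stood at 201 and 519 CPM in tdTomato+ and 4427 and 2555 CPM in tdTomato- cells. *Igfbp6*, whose product favours IGF-II, stood at 305 and 26.5 CPM against 5337 and 1366 CPM. *Igfbp6* was found in 27 of 28 tdTomato- and 53 of 90 tdTomato+ cells.

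Retinoid genes went both ways along the pathway. The enzyme genes *Aldh1a3* (3.06) and *Rdh10* (2.66), whose products make retinoic acid from retinol, were higher in tdTomato+ cells. The carrier gene *Crabp2*, the retinol uptake receptor gene *Stra6* (-5.51), the reductase gene *Dhrs3* (-5.01) and the receptor gene *Rarg* (-2.99) were higher in tdTomato- cells. *Stra6* differed by -2.23 on plate 211 and by -8.78 on plate 215, the widest gap of these.

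In the TGF-beta, activin and BMP pathway, 1 of 15 genes compared was higher in tdTomato+ cells, the activin subunit gene *Inhba*, at 436 and 732 CPM against 147 and 123 CPM. The ligand gene *Tgfb3*, the BMP regulators *Bmper* and *Nbl1* and the BMP target *Id1* were higher in tdTomato- cells. Of 9 angiogenic and growth factor genes, *Fgf7* (1.41), *Ptn* (1.15) and *Mdk* (2.22) were higher in tdTomato+ cells and *Pgf* (-5.27) in tdTomato- cells. Of 29 axon guidance genes 22 were too low to compare. Of the 7 compared, *Sema3c*, *Slit2*, *Ntn1*, *Epha3* and *Plxna2* were called higher in tdTomato- cells, with a median of -3.53. Summed over all its members, the list stood at 568 and 648 CPM in tdTomato+ and 1142 and 1294 CPM in tdTomato- cells. *Ntn1*, the netrin-1 gene, stood at 20.9 and 20.7 CPM in tdTomato+ and 200.2 and 312 CPM in tdTomato- cells.

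Solute carriers, which move ions, amino acids and organic molecules across barrier fibroblasts, divided in the same way. Of 16 compared, *Slc1a3* and the amino acid transporter genes *Slc7a2* and *Slc7a5* were higher in tdTomato+ cells, and 8 were higher in tdTomato- cells. The latter included the bicarbonate transporter genes *Slc4a4* (-4.38) and *Slc4a10*, the sulphate transporter genes *Slc13a4* (-3.18) and *Slc26a2* (-2.77), the prostaglandin transporter gene *Slco2a1* (-5.26), *Slc23a2*, *Slc38a2* and *Slc47a1*. Of 12 lipid genes *Apod* and *Fabp5* were higher in tdTomato+ and *Clu*, *Ptgds* and *Ptgs1* in tdTomato- cells. Of 6 transcription factor genes *Nr2f2* (1.65) was higher in tdTomato+ cells and *Meox2* (-2.62) and *Osr1* (-2.60) in tdTomato- cells.

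Contractile genes, which define myofibroblasts, were mostly not called. *Acta2*, encoding smooth muscle actin, stood at 904 and 1200.2 CPM in tdTomato+ and 1333 and 806 CPM in tdTomato- cells. Its difference was -0.56 on plate 211 and 0.57 on plate 215, so the plates disagreed in sign. In single cells *Acta2* ran from 0 to 10502 CPM in the tdTomato+ sort (median 49.7) and from 0 to 11009 CPM in the tdTomato- sort (median 160.3). Of 17 contractile genes 1 was called in each direction, the integrin subunit genes *Itga5* towards tdTomato+ and *Itga11* towards tdTomato- cells, with a median of 0.37.

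The genes that the study used to name its fibroblast states after injury were chosen on cells of this experiment and are not independent of them. Of 5 perivascular fibroblast genes, *Lum* was higher in tdTomato+ cells, *Pi16* and *Mfap5* were higher in tdTomato- cells, and *Dcn* (0.34) and *Fbln1* (-0.78) were not called. Of 5 myofibroblast genes, *Tnc* and *Itga5* were higher in tdTomato+ cells and *Acta2*, *Tagln* (0.58) and *Thbs2* (-0.72) were not called. Of 3 activated fibroblast genes compared, *Igfbp5* was higher in tdTomato- cells and *Col3a1* (-0.83) and *Col5a1* (-0.13) were not called, and *S100a4* was too low to compare.

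Growth-related genes had small differences of 1 sign. All 26 cell cycle genes compared had a positive difference, with a median of 0.76 (0.65 and 1.02), and 1, the mitotic kinase gene *Aurka*, was called. A count of *Mki67* or *Top2a*, genes of dividing cells, was found in 73 of 90 tdTomato+ (81.1%) and 17 of 28 tdTomato- members (60.7%). After thinning, *Top2a* was found in 56.7% (45.8 to 67.1%) and 32.1% (15.9 to 52.4%). These intervals cover the counting of cells only, and the difference between sorts was not tested. All 79 cytosolic ribosomal protein genes had a positive difference as well, with a median of 0.84 (0.81 and 0.89), and *Rps2* and *Rps15a* were called. Symbols of ribosomal protein genes share sequence with many pseudogenes, so single values are uncertain.

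The remaining lists had few calls. Of 16 glycolysis genes *Pfkp* was higher in tdTomato- cells, with a list median of 0.47. Of 18 immediate early and stress genes *Ier3* was higher in tdTomato+ cells, and *Dusp1* and the metallothionein genes *Mt1* and *Mt2* were higher in tdTomato- cells. These genes respond to handling in many tissues, and the list median was -0.21, beside 0.03 for all genes.

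Uninjured cells that passed the same gate, which the comparison above had not used, were then read for the same genes. They were 21 tdTomato+ and 8 tdTomato- cells of plates 209 and 213. Injury and plate cannot be told apart, so only the differences between sorts were set side by side. Of the 15 genes named towards tdTomato+ cells, 13 had the same direction in the summed uninjured cells and 11 of them passed 1. *Il11*, counted among the 13, was almost absent before injury, at 0.847 CPM against 0. Of the 15 named towards tdTomato- cells, all 15 had the same direction in those sums and 14 passed 1. On each of both uninjured plates the direction held for 11 and 12 genes. Of genes with the same direction in the sums, *Ccl11* (-0.14), *Tbx3* (-0.36), *Emb* (0.28), *Myoc* (1.84) and *Shisa3* (1.09) went the other way on plate 213. There 1 of 3 tdTomato- cells held 64.2% of the counts. Over all called genes the direction in the sums was the same for 144 of 196 (73.5%) and 298 of 432 (69%), beside 50.8% and 48.7% of all genes read towards each sort. It was the same and past 1 for 55.6% and 40%, beside 17% and 15.3%.

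The uninjured levels, as CPM of counts summed over both plates, show which of these genes already separated the sorts. *Slc1a3* stood at 701 CPM in tdTomato+ and 35.2 CPM in tdTomato- cells, *Spp1* at 952 and 21.5 CPM, *Trf* at 1862 and 52.3 CPM, and *Lama1* at 636 and 51.8 CPM. All tdTomato- counts of *Slc1a3* and of *Lama1* came from a single cell of plate 213, at 265 and 391 CPM. *Hsd11b1* stood at 379 CPM and 0. In the other direction *Pi16* stood at 638 and 3109.6 CPM, *Igfbp5* at 422 and 4078 CPM, *Slc47a1* at 36 and 734 CPM and *Sfrp4* at 124 and 2612 CPM. *Aspn* (-9.81) and *Ccn5* (-8.08) had the largest differences of the 15.

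Other genes separated the sorts after injury and much less, or the other way, before it. *Tfpi2*, a protease inhibitor gene, stood at 2.82 CPM in tdTomato+ and 31.8 CPM in tdTomato- uninjured cells, a difference of -3.10, against 3.69 after injury. Its uninjured difference was -5.85 on plate 209 but -0.39 on plate 213. *Has2* had -2.74 against 2.82, and *Inhba* -2.61 against 2.06. *Inhba* differed by 0 on plate 213. The uninjured plates disagreed on *Aldh1a3*, with 6.20 on plate 209 and -6.23 on plate 213. *Ccl11* was near even before injury, at 218 and 174 CPM. The C1 inhibitor gene *Serping1* (0.10) and *Col6a1* (0.29) differed by less than 1 before injury, in the sums and on each plate. *C1s1* (-2.76 and 2.63) and *Eln* (2.16 and -1.10) differed by more than 1 in opposite directions on plates 209 and 213. With 8 uninjured tdTomato- cells, these values rest on few cells, and the change of the difference was not tested.

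**Figure D5:**
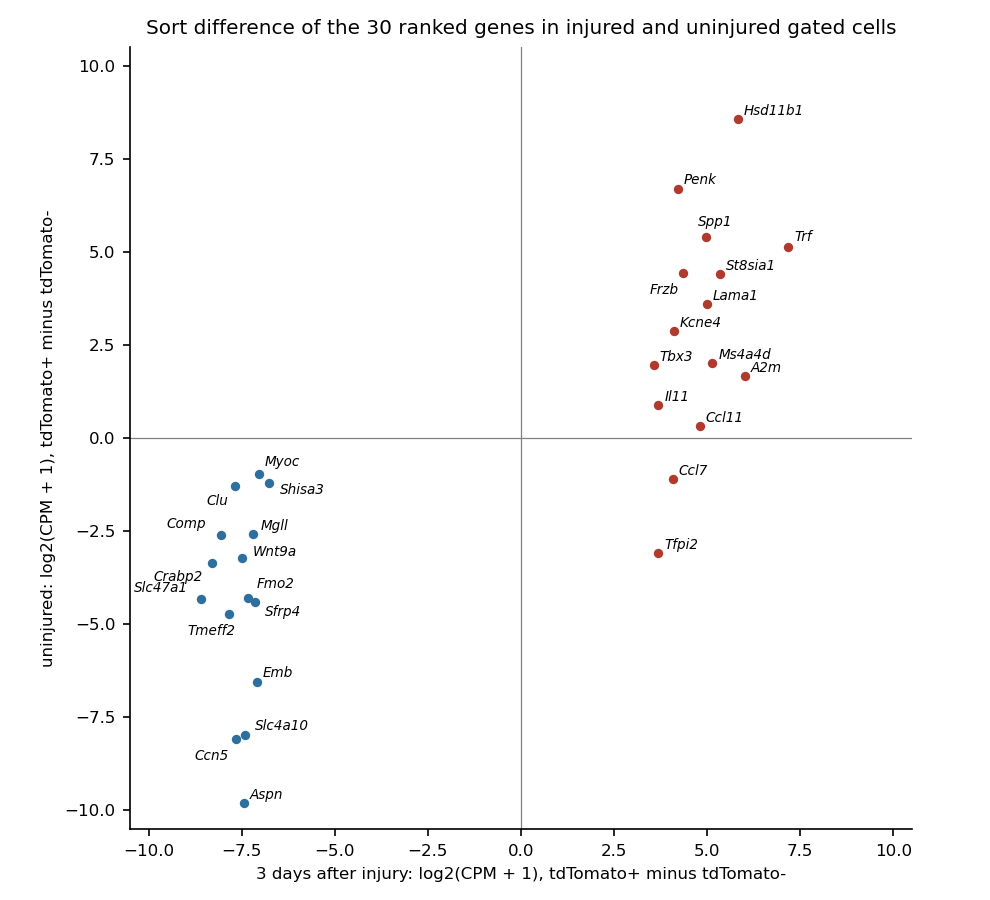
Each point is 1 of the 30 genes named at both ends, placed by its log2(CPM + 1) difference, tdTomato+ minus tdTomato-, in gated cells 3 days after injury (horizontal axis) and in summed uninjured gated cells (vertical axis). All 15 genes higher in tdTomato- cells (blue) lie in the lower left, and 13 of the 15 higher in tdTomato+ cells (red) in the upper right, with *Ccl7* and *Tfpi2* below 0.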

How the data were processed

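Single EGFP+ cells of the mouse spinal cord were profiled by Smart-seq3. Whole-number counts were deposited in 1 table with genes in rows. Of its 1968 cell columns, 503 carry names of labelled cells and 1465 were not used. The submitters' processing notes name the build mm10. The aligner, the annotation and what 1 count stands for (reads or molecules) are not given in the sources used here. PCR reads are not independent molecules, so intervals and floors (3 counts) cover counting error only.

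The 92 spike-in rows (0.0314% of counts) were left out. Group, sort and plate came from the labels, and no label names an animal. Counts of gated cells were summed per sort and plate and scaled to CPM with a pseudocount of 1. Genes at 50 CPM or more were compared, and 1 or more on the log2 scale on both plates was a call. Cells were thinned to 20000 counts for shares. No 2 gated cells had the same counts, and no doublet caller was run on cells sorted singly. Named genes are *Slc1a3*, *Pdgfrb*, members of lists that were called (every member of lists of 5 or fewer), and the top 15 genes by difference in each direction that were detected in at least 20% of cells of the higher sort on each plate, with no cell holding over 50% of their counts. Mitochondrial, ribosomal and unnamed gene models were left out of that ranking. The cells, gene lists and rules were chosen with earlier results of these data known. Other genes named were chosen after their values were seen. The summing and calling were tested on simulated data.

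Alternatives changed the gate, depth minimum, filter, pseudocount, scaling (TMM in edgeR 4.0.16, size factors in DESeq2 1.42.0), plates and cells. Python 3.11.15 and R 4.3.3 were used.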

Additional observations from a re-analysis of the deposited data

Results flagged for a closer look

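*Ccl7*, *Cxcl16* and *Slc13a4* had a sort difference of 1 or more in one direction on both injured plates and in the other on both uninjured plates, at 50 CPM or more, and the change of the difference was not tested. *Ccl7* was higher in tdTomato+ fibroblasts after injury (4.07) and had -1.10 before it, where its level was 83.9 CPM in 21 tdTomato+ and 181 CPM in 8 tdTomato- cells. *Cxcl16* was higher in tdTomato- fibroblasts after injury (-1.57) and had 1.3 before it (794 and 322 CPM). *Slc13a4* likewise had -3.18 after injury and 3.97 before it (98.6 and 5.37 CPM).

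Counts in the spike-in rows, which no comparison used, were found in 91 of the 118 gated cells. These were all 91 cells of plate 211 and none of the 27 of plate 215, and on plate 211 they made 0.0709% of counts.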

How the results depend on the processing

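The main counts were 196 genes higher in tdTomato+ and 432 higher in tdTomato- fibroblasts, and 8 lists with a median past 1 on both plates. Summing both plates gave 302 and 842 genes, a filter of 10 CPM 467 and 899 (4 lists), no filter 682 and 1146 (3 lists), and a call at a log2 difference of 2 gave 58 and 182. Without cells holding an *Mki67* or *Top2a* count, 17 tdTomato+ and 11 tdTomato- cells remained, with 392 genes higher in tdTomato+ cells and 4 tdTomato- cells with an *Slc1a3* count. A *Lum* gate in place of *Col1a1* left 15 tdTomato- cells, 8 of them with *Slc1a3*. Leaving out the deepest cell of each sort and plate together gave 321 genes higher in tdTomato+ cells, and leaving out each alone, an alternative chosen after seeing the data, gave 197 to 264. With 1 plate left out in turn, the genes ranged from 375 to 507 and from 526 to 994, the lists from 14 to 16, the gated cells from 13 to 77 (tdTomato+) and at 14 (tdTomato-), the tdTomato- cells with *Slc1a3* from 5 to 8, and the share of thinned tdTomato- cells with a *Pi16* count, drawn anew each time, from 35.7% (without plate 211) to 50%.

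The 148 named genes that were called kept their direction in every setting, apart from *Usp18* (-0.73 with *Kcnj8* under 10 CPM) and *Cspg4* (1.21 without cycling cells). The median of the endothelial list, 3 genes in the main comparison, turned to -0.43 at 10 CPM, -0.79 without a filter and -2.60 with *Kcnj8* under 10 CPM. The causes were not tested. List medians were the same with sums of 0 set at the floor. Calls of *Adamts1*, *Adamts5*, *Col12a1*, *Cxcl16*, *Dusp1*, *Id1*, *Il33*, *Itga11*, *Itga5*, *Ltbp3*, *Mt1*, *Ptn*, *Rps15a*, *Rps2*, *Tgfb3* and *Usp18* were lost without the cell richest in that gene, whichever its sort. For some other genes, such as *Cfb*, *Ptgds* and *Slc13a4*, that cell lay in the sort with the lower level, and its removal widened the difference. Whether the calls of such genes rest on a single cell of the higher sort was not tested in this way. Other pseudocounts, scalings, thinning and the study's cell filters, applied without its upper limit on features, under which no gated cell falls, kept both counts within 1.5 times. Which genes were called changed more. Thinned cells shared 128 of the 196 and 334 of the 432 main calls. Of the 148 named genes that were called, 122 stayed called after thinning and 103 without cycling cells. Depth limits most the tdTomato+ cells of plate 215, where 3 counts are 1.94 CPM. No paired analysis was possible because no result comes from a test. Both sorts shared each plate, so the differences were already taken within plates.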
